A study of Sus scrofa with 8 samples.

Results

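The anoctamins (TMEM16 proteins) are a family of membrane proteins, and the 10 genes ANO1 to ANO10 were taken by name from the gene annotation with which the reads of airway submucosal glands (SMG) had been counted. All 10 names were found once, among 30390 genes in all and 20661 protein-coding nuclear genes with a coding transcript. The libraries came from tracheal SMG of newborn pigs, 4 wild-type animals and 4 CFTR-/- animals, which lack the anion channel of cystic fibrosis. The glands were dissected from the trachea after most of the surface epithelium had been scraped away, and cells were sequenced from the 3′ end of their transcripts. One annotation on the Sscrofa11.1 build served all 8 libraries. It gives the position of each gene, exon and coding segment and holds no value per animal, so the genotypes are not compared and no sequencing depth can be given. The values are properties of gene models, with no replicate error and no test, and genes are not replicates of one another.

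Anoctamins share a fold in which each protein of a dimer binds calcium and opens a groove through the membrane. ANO1 (TMEM16A) and ANO2 (TMEM16B) conduct chloride when calcium rises. ANO1 is the channel that drives calcium-stimulated fluid secretion in many glands, and ANO2 is best known from olfactory neurons and photoreceptors. ANO6 moves phospholipids between the leaflets of the plasma membrane, as platelets do when blood clots. Most of the other members are described as lipid scramblases or are less well understood. In human and mouse ANO1, short alternative exons that lie in the cytosolic parts of the protein change how the channel responds to calcium and voltage.

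ANO1 was the member with the most alternative models, and the alternative pieces were small and all in frame. The gene lies on the minus strand at chr2:3202269-3373409 and had 13 coding transcripts, named variants X1 to X13. In all, 3 exons within the coding sequence were present in some variants and skipped in others (cassette exons), with lengths of 66, 12 and 78 bases, or 22, 4 and 26 codons. The 12-base exon is shown whole, since it is the shortest cassette exon of ANO1, and the edges of the other exons are shown because the splice sites define them. Exon letters are in capitals and intron letters in lower case, all 5′ to 3′ on the minus strand of Sscrofa11.1.
ANO1 12-base exon, chr2:3231188-3231217: tccctgaagGAGGCTGTCAAGgtttggaac
ANO1 66-base exon, acceptor edge, chr2:3258136-3258165: ccgatgtataaacagGGCAAGGAGAGGGAA
ANO1 66-base exon, donor edge, chr2:3258070-3258099: AGTGTGGTAAATACGgtaagtgcctccggc
ANO1 78-base exon, acceptor edge, chr2:3227790-3227819: ctccacctgccccagAAGCGCCGGCACCTT
ANO1 78-base exon, donor edge, chr2:3227712-3227741: GCGGGGGTGAAATTGgtactgtcacgtcgg
ANO1 75-base form of the same exon, acceptor edge, chr2:3227787-3227816: cacctgccccagaagCGCCGGCACCTTCCA
The 75-base form begins 3 bases later. Its acceptor and that of the 78-base form lie in the 6 letters CAGAAG, in which AG occurs at both ends of the step, so the 2 forms differ by 1 codon.

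Each of the 3 cassette positions was used in 9 of the 13 ANO1 models and skipped in 4, but not in the same models. The 66-base exon, the 8th exon of variant X1, was absent from X6, X8, X12 and X13. The 12-base exon, the 15th, was absent from X3, X4, X9 and X13. The third position, exon 17, was absent from X7, X9, X12 and X13, held 78 bases in 7 models and held 75 bases in X2 and X4. Of the 8 combinations that 3 such exons allow, 7 were present. The absent combination kept the 78-base exon and left out both others. X1, X2, X5, X10 and X11 contained all 3 exons, and X13 contained none.

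The RefSeq evidence attached to each model, which is from public RNA-seq and not from these animals, counts the samples that support every intron of the model. The 4 ANO1 models without the 12-base exon had 6 or 7 such samples. The 9 models with it had 7 to 37. X12, which contains the 12-base exon and neither of the others, had the most, 37 samples, and X6, which lacks only the 66-base exon, had 35. The count of samples per model is not a level of the transcript, and a model with more introns has more to support.

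**Figure D1:**
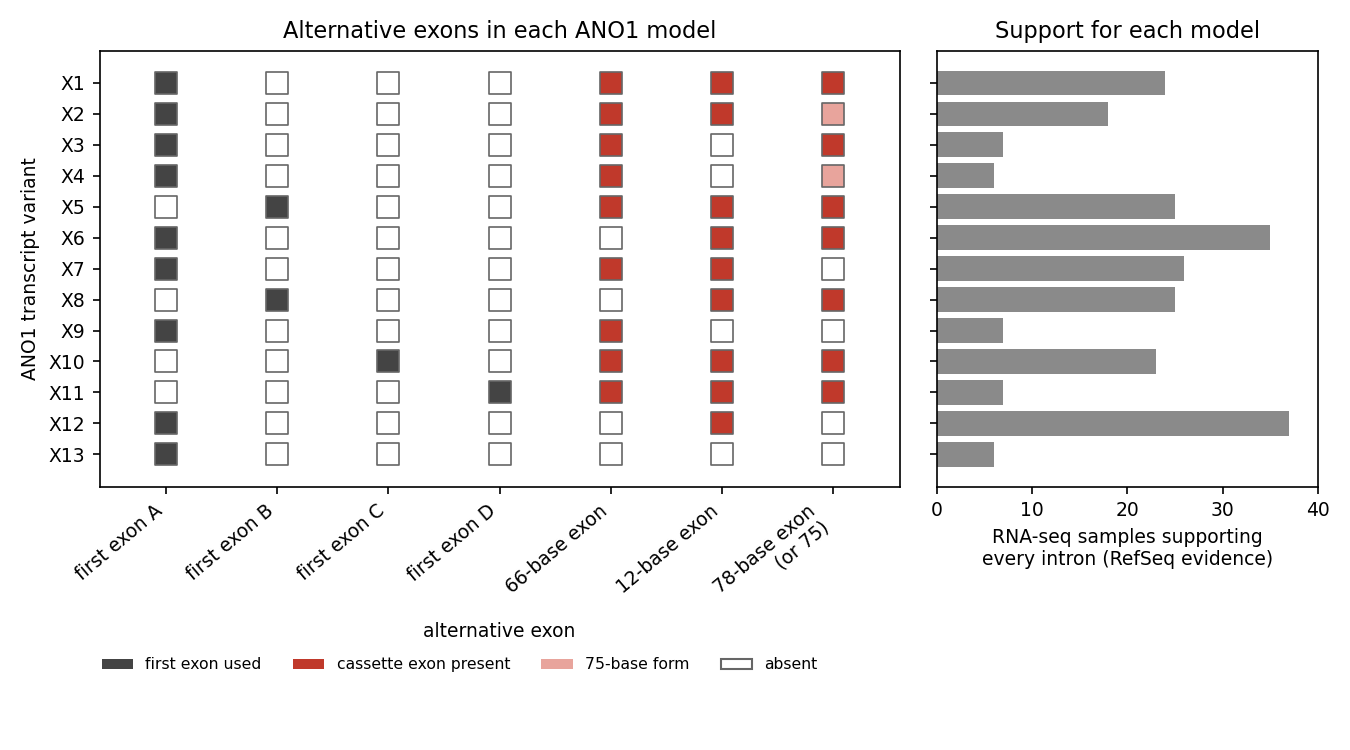
Alternative exons of ANO1. Left, each row is 1 of the 13 transcript variants and each column is 1 alternative exon, filled where the model uses it. Right, bars give the RNA-seq samples that support every intron of the model in the RefSeq evidence, from 6 to 37. The 4 models with an open box at the 12-base exon have 6 or 7 samples.

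ANO1 also began in 4 places. First exon A, at chr2:3356549-3356841, was used by 9 models and lies 69760 bp upstream of the next shared exon. First exon B, at chr2:3373271-3373409, was used by X5 and X8 and lies 86482 bp upstream of it. First exons C and D, at chr2:3286939-3287322 and chr2:3287352-3287451, were used by X10 and X11 and lie 150 and 563 bp upstream. A and B each carry a start codon of their own, and C and D hold no coding sequence. The models that use C or D begin translation in the next exon, so ANO1 has 3 start codons, shown with the codon in capitals because they give the protein 3 different beginnings.
ANO1 start codon of first exon A, chr2:3356577-3356606: ATGctggagggcgacatcggcctcgaggga
ANO1 start codon of first exon B, chr2:3373275-3373304: ATGgaggagacgacgctggaccctctgctg
ANO1 start codon of X10 and X11, chr2:3286694-3286723: ATGagggtcaacgagaagtactcgacactc
With start and cassette exons together, the coding length of ANO1 ran from 2973 bp in X13 to 3129 bp in X1, and 12 of the 13 coding sequences were distinct. X10 and X11 shared one.

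At its 3′ end ANO1 had a single form. All 13 models ended at position 3202269 with a 3′ UTR of 1362 bp, and their last 500 bases were the same. The models that differ in 3 cassette exons and 3 start codons were thus identical over the stretch near which 3′ sequencing reads begin. The hexamer ATTAAA, one of the 2 common poly(A) signals, began 26 bases before that end.

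The sequences chosen for in situ hybridization of TMEM16A were matched to the ANO1 models. All 6, of 38 to 40 bases, matched exactly, in sense orientation, in all 13 models, and wholly within the coding sequence of X1. Target 1 lies in exon 2 of X1 at chr2:3286685-3286724 and spans the start codon of X10 and X11 printed above. Targets 3 and 4 lie in exon 3, target 5 crosses the junction of exons 6 and 7, target 6 lies in exon 9 and target 2 in exon 27. None touched exon 8, 15 or 17, the cassette exons of X1, and no other anoctamin matched any of the 6 with up to 2 mismatches. Target 2, the nearest to the 3′ end, lies 1656 spliced bases from it. Each target thus matched every annotated ANO1 model, and none separates one model from another.

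ANO2 was the opposite of ANO1 in the number of its models. It lies on the plus strand at chr5:64660047-65002453 and had 1 coding transcript and no cassette exon. It had 25 exons, a coding length of 2991 bp, a 5′ UTR of 435 bp and a 3′ UTR of 633 bp, with AATAAA 25 bases before its end. The model is of lower quality than that of ANO1. It carries 2 gaps of 2 bases at which RefSeq inserted bases to keep the reading frame, RNA-seq covered 95% of it, and 4 samples supported all of its introns. ANO6 shared this feature, with 1 such gap, and both proteins are called low quality by RefSeq. Gaps under 10 bp occurred in 11.6% of protein-coding genes. How many isoforms of ANO2 the pig makes was not tested.

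ANO2 was the member whose protein was most like that of ANO1. The longest coding sequence of each gene was translated and the 10 proteins were aligned. ANO1 and ANO2 had 62.2% identical residues over 944 aligned positions. ANO4 was next to ANO1 with 43.8%, then ANO3 with 42.1%, ANO5 with 41.9% and ANO6 with 38.8%, down to ANO10 with 23.9%. Of the other members, ANO3 and ANO4 were each other's nearest (62.6%), as were ANO5 and ANO6 (50%) and ANO8 and ANO10 (36.5%).

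The places of the introns were also alike. Of the 24 introns in the ANO2 coding sequence, 21 fell at the same aligned position and in the same codon phase as an ANO1 intron. The number was 16 of 26 for ANO3, 16 of 29 for ANO4, 13 of 21 for ANO5, 14 of 20 for ANO6 and 13 of 22 for ANO9. In ANO8 it was 2 of 18 and in ANO10 it was 2 of 11. The residues of the ANO1 cassette exons were only partly matched in ANO2. The 66-base exon contributes to 23 residues of ANO1, of which 1 faced an ANO2 residue, and the 78-base exon gives 26, of which 12 did. Of the 4 residues of the 12-base exon, 2 did, a stretch too short to place firmly. In the remaining members, 5 to 13 residues faced the 66-base exon, more than in ANO2. Only 0 or 1 faced the 78-base exon, fewer than in ANO2. The highest values at the 66-base exon, 12 and 13, were in ANO8 and ANO10, with 26.3% and 23.9% identity to ANO1. ANO7 had 6 there, although its best local match to ANO1 lay at residues 925 to 963 of ANO1. The placement in these 3 members is not firm. With a tolerance of 3 alignment columns, ANO2 had an intron at 1 edge of the 66-base exon, at 1 edge of the 12-base exon and at neither edge of the 78-base exon. The same edge of the 66-base exon had an intron in ANO3, ANO4, ANO8, ANO9 and ANO10. That of the 12-base exon had one in ANO3, ANO4 and ANO9. ANO5 and ANO6 had an intron at 1 edge of the 78-base exon.

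**Figure D2:**
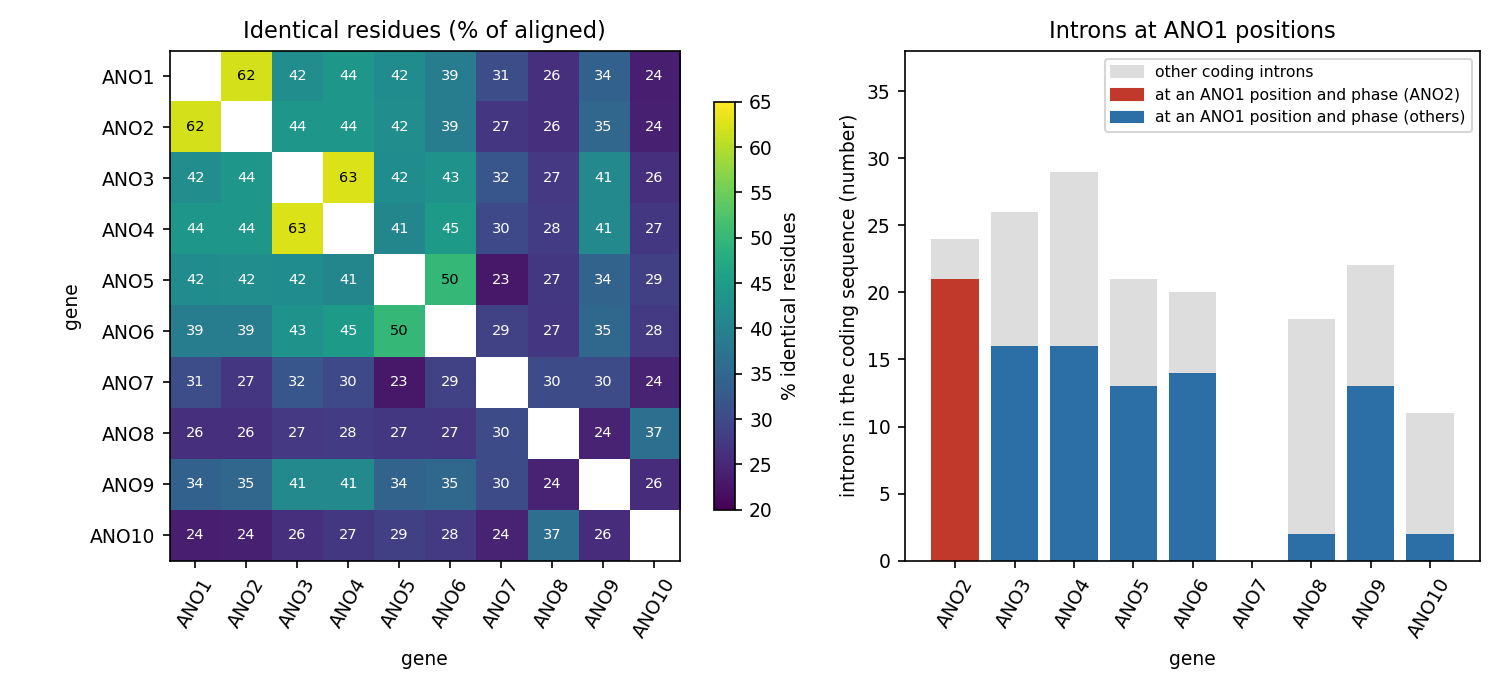
Similarity of the 10 proteins. Left, the percentage of aligned residues that are identical for each pair of genes, from 62.2% for ANO1 and ANO2 to 23.9% for ANO1 and ANO10 in the first row. Right, bars give the introns in the coding sequence of each gene (grey and coloured together) and those at the position and phase of an ANO1 intron (coloured), 21 of 24 in ANO2.

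Against the 8 other members, ANO1 and ANO2 lay at opposite extremes of isoform number. The others had a median of 3 coding transcripts. ANO6, ANO7 and ANO9 had 1, ANO5 and ANO8 had 3, ANO3 had 5, ANO10 had 6 and ANO4 had 8. ANO1 exceeded all 8, and none was below ANO2. Of all protein-coding genes, 51.1% had 1 coding transcript, as did 4 of the 10 anoctamins, and 3.51% had 13 or more, as did ANO1 alone. None of the 10 genes had a non-coding transcript, for which no share over all protein-coding genes was taken.

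The RNA-seq support in the RefSeq evidence differed between the genes. ANO6 and ANO9 had 1 model each, with every intron supported in 90 and 46 samples. ANO10 had 6 models with 21 to 182 samples, ANO5 had 3 with 27 to 50, and ANO8 had 3 with 10 to 76. ANO4 had 8 with 1 to 30 samples, of which X1 and X3 rested on 1 each, and ANO3 had 5 with 7 to 21. The 13 ANO1 models had a median of 23 samples, and the only ANO2 model, with 4, had the lowest support of the 4 genes with 1 model.

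Cassette exons were found in ANO1, ANO3, ANO4, ANO5 and ANO8, 5 of 10 genes, where 27.6% of protein-coding genes had at least 1. ANO1 had 4 (the 75- and 78-base forms counted apart) and ANO4 had 3. With overlapping forms counted once, both had 3 positions, and 6.46% of genes had 3 or more. ANO1 was the only member with a cassette exon of 30 bp or fewer, which 2.81% of genes had. All 9 wholly coding cassette exons of the family, overlapping forms counted apart, were a multiple of 3 bases long. Over all protein-coding genes this held for 4990 of 7322 coding cassette exons (68.2%).

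The cassette exons of the other members were longer than the 12-base exon of ANO1. In ANO4, a brain-expressed member at chr5:83052070-83489523, exons of 36 and 105 bases were used in 5 and 6 of 8 models, and a 195-base exon in the 5′ UTR was used in X6 alone. ANO3, at chr2:33618740-34048973, whose human counterpart is mutated in an inherited dystonia, had a 45-base exon in 4 of 5 models. ANO5, at chr2:37171402-37256204, whose loss causes a muscular dystrophy in people, had a 42-base exon in 2 of 3. ANO8, at chr2:60357194-60367248, a tether between the endoplasmic reticulum and the plasma membrane, had a 132-base exon in 2 of 3. The acceptor edges of the cassette exons of up to 45 bases are printed, with exon letters in capitals on the minus strand, for comparison with ANO1.
ANO3 45-base exon, acceptor edge, chr2:33727431-33727460: tctattatttttcagGAAAAAATGCTATTA
ANO4 36-base exon, acceptor edge, chr5:83150826-83150855: tttcttgtctctcagGCTTGTCCATTTTCC
ANO5 42-base exon, acceptor edge, chr2:37230103-37230132: tccattacttcacagTCTGCAAAGCGATAC
Each ends in the intron with AG, as do those of ANO1. Of 226 distinct introns in the family, 224 began with GT and ended with AG, and 2, in ANO2 and ANO8, began with GC.

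Alternative first exons were more common in the family than alternative last exons. At least 2 separate first exons were found in ANO1, ANO3, ANO4, ANO5 and ANO10, 5 of 10 genes, against 26.3% of protein-coding genes. ANO1 and ANO3 had 4, ANO4 and ANO10 had 3 and ANO5 had 2. At least 2 last exons were found in ANO10 alone, which had 3, against 8.71% of genes. Among internal exons, a second acceptor occurred once, at the 78-base exon of ANO1, and no retained intron was annotated in any member. For neither was a share over all protein-coding genes taken, so whether these counts are unusual cannot be said. Alternative splice sites of first and last exons were not counted. In ANO8, X1 and X2 both had 19 exons but coding lengths of 3828 and 3774 bp.

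Gene span did not set the channels apart. ANO2 spanned 342407 bp, more than 6 of the 8 others, and ANO1 spanned 171141 bp, more than 4 of them. The longest genes were ANO4 (437454 bp) and ANO3 (430234 bp), and the others were ANO10 (272066 bp), ANO6 (224646 bp), ANO5 (84803 bp), ANO9 (18206 bp), ANO8 (10055 bp) and ANO7 (5385 bp). At least 100000 bp was spanned by 6 of the 10 anoctamins and by 14.1% of protein-coding genes. The median span was 197894 bp in the family and 19194 bp over all protein-coding genes. Much of this was intron. Exons made up 3.13% of the ANO1 span and 1.19% of the ANO2 span, against 44.0% in ANO8. The longest intron was 86482 bp in ANO1, 76814 bp in ANO2, 224307 bp in ANO3 and 1120 bp in ANO8.

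**Figure D3:**
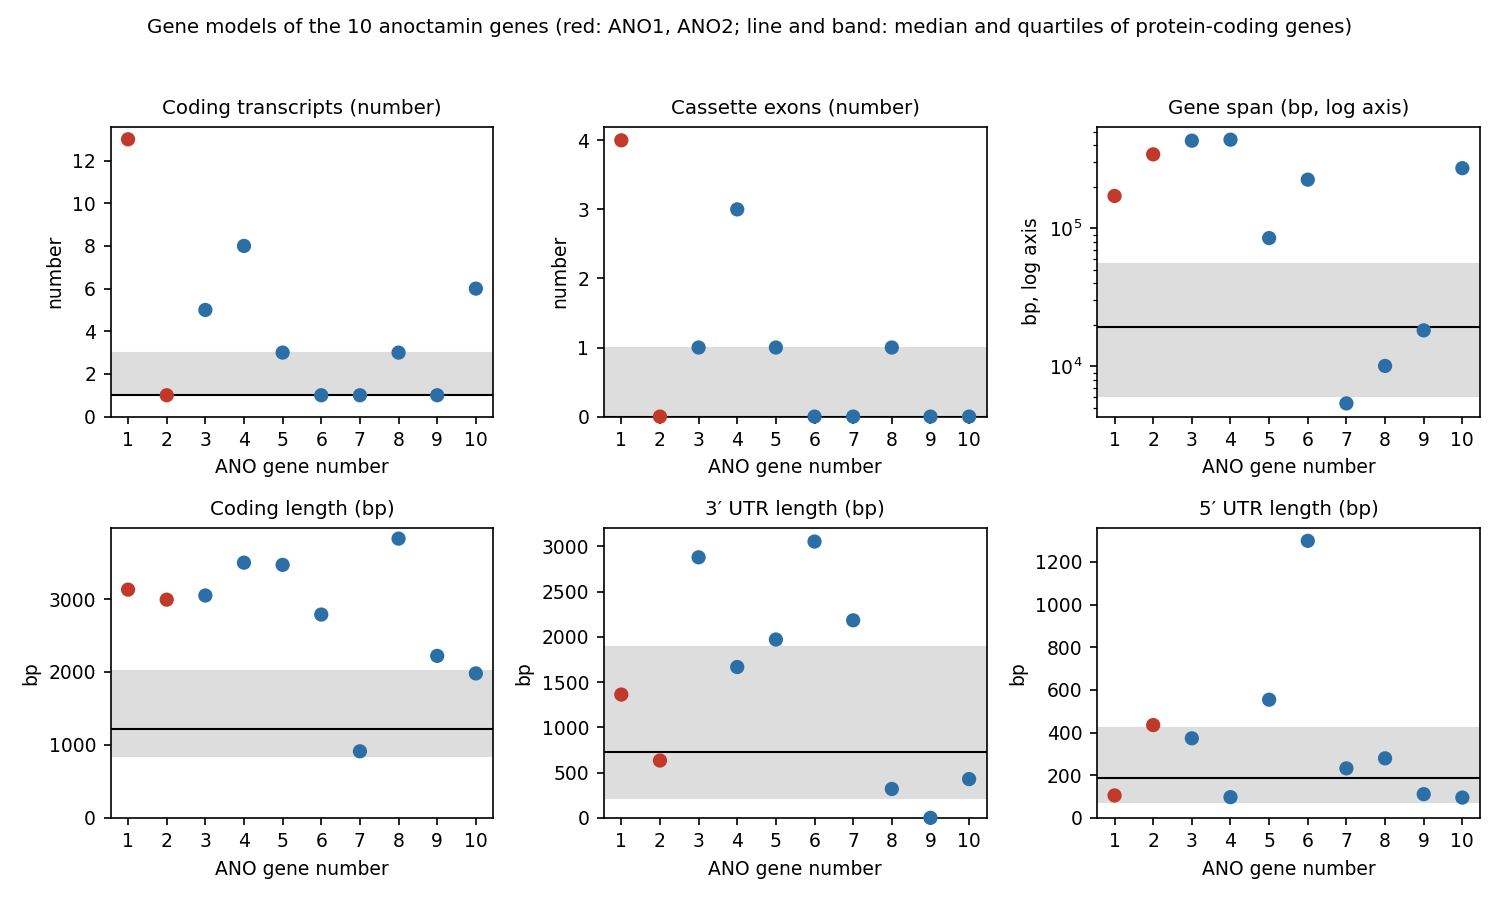
Gene models of the 10 anoctamin genes. Each panel plots 1 measure for ANO1 to ANO10, with ANO1 and ANO2 in red, and the line and the grey band give the median and quartiles over 20661 protein-coding genes. ANO1 is highest for transcripts (13) and cassette exons (4), where ANO2 has 1 and 0. For span, coding length and UTRs both lie within the range of the others.

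Coding length was similar in the channels and most other members. It was 3129 bp in ANO1 and 2991 bp in ANO2, and the other 8 had a median of 2917.5 bp. ANO8 had the longest (3828 bp), then ANO4 (3498 bp), ANO5 (3468 bp) and ANO3 (3048 bp). ANO6 had 2787 bp, ANO9 had 2220 bp and ANO10, mutated in a recessive ataxia in people, had 1980 bp. The family median was 3019.5 bp and that of all protein-coding genes was 1218 bp. ANO1 had a longer coding sequence than 89.1% of these genes and ANO2 than 88.0%. The sequence was divided into 28 coding exons in ANO1 and 25 in ANO2, against a median of 7 over all protein-coding genes.

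ANO7, known from the human prostate, was the exception with 912 bp. Its model at chr15:139951191-139956575 has 2 exons, with all coding sequence in the second, where the other members have 12 to 30 coding exons in the model with the longest coding sequence. In a local search with low-complexity stretches masked, the best match to other anoctamins lay within residues 88 to 121 of its 304 residues. The match was found with 7 of the 9 others and covered 33 to 39 positions with 33.3 to 54.5% identical residues. In ANO1 it lay at residues 925 to 963 of 1043, and in ANO9, the closest, at 670 to 702 of 740, near the end of the protein in both. RNA-seq covered 100% of the ANO7 model, and 78 samples supported its intron. Only the best stretch per member was kept, so whether the rest of the model matches any of them was not tested. The measures of ANO7 are those of this short model.

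The 3′ UTR was shorter in the channels than the median of the others, within their range. It was 1362 bp in ANO1 and 633 bp in ANO2, each longer than in 3 of the 8 others, whose median was 1818 bp. ANO6 (3052 bp), ANO3 (2878 bp), ANO7 (2182 bp), ANO5 (1970 bp) and ANO4 (1666 bp) had longer ones, and ANO10 (428 bp) and ANO8 (319 bp) had shorter ones. The median over all protein-coding genes was 726 bp.

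ANO9, a member described in intestine and olfactory tissue, had a 3′ UTR of 0 bp. Its only model, on the minus strand at chr2:232761-250966, ends with the last base of the stop codon TGA, and 46 samples supported its introns. A 3′ UTR of 0 bp was found in 8.82% of protein-coding genes, and in 2.34% of those whose name does not begin with LOC. No poly(A) signal lay in its last 100 bases, which are coding sequence and stop codon. The next gene downstream on the same strand was SIGIRR, 6218 bp away. How many reads of ANO9 fall beyond this end was not tested.

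**Figure D4:**
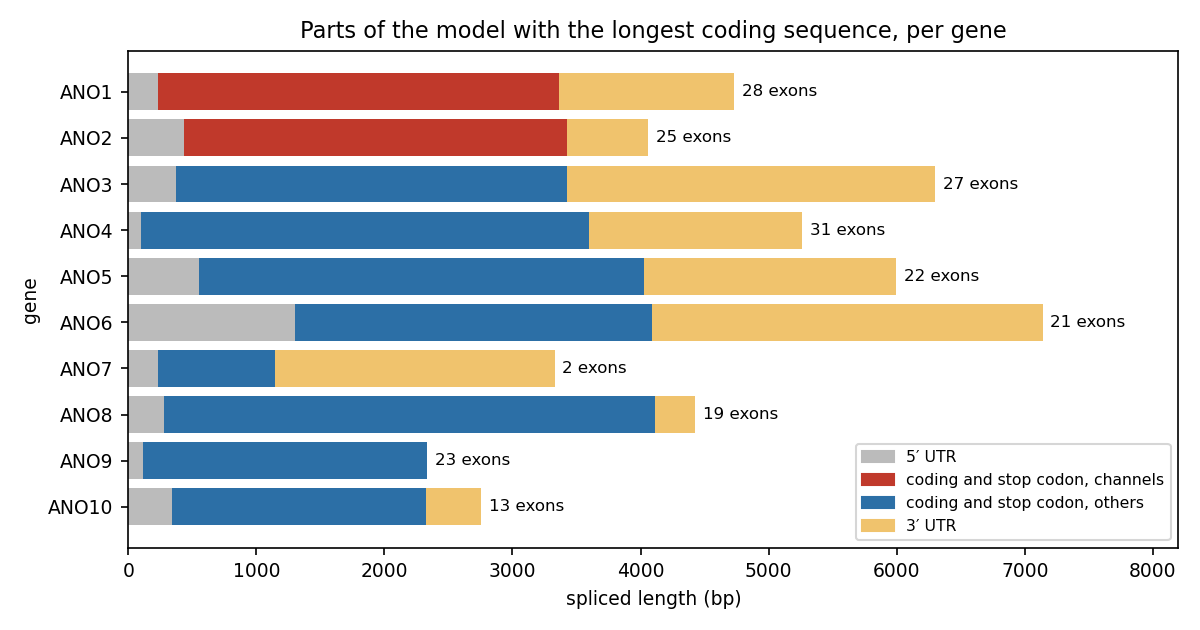
Parts of the model with the longest coding sequence of each gene. Bars give the spliced length in bp, divided into the 5′ UTR (grey), the coding sequence with the stop codon (red for ANO1 and ANO2, blue for the others) and the 3′ UTR (yellow), with the number of exons beside each. The yellow part is 3052 bp in ANO6 and absent in ANO9, and the coding part is 912 bp without the stop codon in ANO7.

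The 5′ UTR varied without relation to the channels. It was 105 bp in ANO1, taken from first exon B, and 435 bp in ANO2, and the other 8 ran from 95 bp in ANO10 to 1299 bp in ANO6 with a median of 255.5 bp. Over the 13 ANO1 models it ran from 105 to 449 bp, the longest in X10. In ANO4 it ran from 97 to 1197 bp.

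A signal for polyadenylation, AATAAA or ATTAAA, was sought on the strand of each gene in the final 50 bp. One lay at the farthest 3′ end of 7 of the 10 genes and of 60.9% of protein-coding genes. Both channels had one, and ANO4, ANO7 and ANO9 had none. For ANO9, whose model ends at the stop codon, no 3′ UTR could be searched. In the other members with one, it began 23 to 29 bases before the end. ANO4 had 5 distinct ends. X7 and X8, with 3′ UTRs of 769 and 778 bp, ended at positions 83052967 and 83052958 with AATAAA 17 and 26 bases before. All introns of each were supported in 30 samples. The other 6 models ran on to 83052070, 83052071 or 83052072, ends without a signal, and had 1 to 9 such samples. These counts concern the introns of a model and do not measure the use of its 3′ end. ANO5 had 3 ends close together, at 37171402, 37171409 and 37171499, each with AATAAA. In ANO10 the main end, used by 4 of 6 models, had ATTAAA, and the separate last exons of X5 and X6 had no signal and left 3′ UTRs of 15 and 16 bp.

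ANO4 also differed in where the stop codon lies. In all 8 of its models the stop codon comes before the last exon, so that an intron lies in the 3′ UTR. Nearly all of that UTR lay in the last exon, 1662 of 1666 bp in X1 and 765 of 769 bp in X7. A stop codon before the last exon in every coding transcript was found in 3.58% of protein-coding genes. In the other 9 members the stop codon lies in the last exon of every model.

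No member shared exon bases with another gene on its own strand, which 3.34% of protein-coding genes did. The next gene downstream on the same strand was FADD for ANO1, 7448 bp away, and MIR9813 for ANO2, 477147 bp away. On the opposite strand, ANO3 shared 61 exon bases with MUC15, a membrane mucin gene whose span overlaps that of ANO3, and ANO8 shared 81 with DDA1. SLC5A8 on the opposite strand overlapped the span of ANO4 without shared exon bases, and LOC110260769 overlapped that of ANO6 on the same strand. Exon bases were shared on either strand by 2 of the 10 members and 19.9% of protein-coding genes. Spans overlapped on the same strand for 1 member and 6.14% of protein-coding genes.

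Beside genes of related form or function, the anoctamins had longer median spans and coding sequences, but not more exon sequence than each list. Their median of distinct exon bases was 4891.5, against 5532 in the structural relatives, 6035.5 in the other anion channels and 3052.5 in the other scramblases. Their median 3′ UTR was 1514 bp, against 1696, 1686 and 912 bp. The 11 structural relatives TMC1 to TMC8 and TMEM63A to TMEM63C had a median of 5 coding transcripts, a median span of 54712 bp and a median coding length of 2415 bp, from 2097 bp in TMC4 and TMC8 to 3279 bp in TMC3. Of these, 5 had a cassette exon. The 12 other anion channels had medians of 4 coding transcripts, 33930.5 bp and 2406 bp, with CFTR the longest at 4446 bp, and 5 had a cassette exon. Within that list LRRC8D, a subunit of the volume-regulated channel, had 13 coding transcripts, as many as ANO1, but 1 distinct coding sequence, where ANO1 had 12. Of 10 other scramblase genes 8 were found, with medians of 3 coding transcripts, 28614 bp and 1054.5 bp, and 4 had a cassette exon.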

How the data were processed

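Single cells of tracheal SMG (4 wild-type animals, 4 CFTR-/- animals, all newborn) were sequenced from the 3′ end. The authors counted reads with Cell Ranger (3.0.2 in the submitters' processing notes) against their edited RefSeq annotation of Sscrofa11.1. That annotation is the deposited file used here, and its values are positions counted from 1. Count matrices were not analysed here. All 42 member transcripts had the same exons and coding segments in the RefSeq annotation of the same build, so none had been changed by the authors' editing.

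Measures were taken per gene from coding transcripts. Coding length leaves out the stop codon, a 3′ UTR is that of the transcript ending farthest 3′ and a 5′ UTR that of the one starting farthest 5′. A cassette exon is an internal exon lying wholly within an intron of another coding transcript. Gaps under 10 bp were joined. Sequences were read from the RefSeq genome with pysam 0.24.0. Proteins were translated from the genome, with codons split by a gap masked, and aligned with MAFFT 7.526 and blastp 2.17.0. Numbers of transcripts, exons and cassette exons, span, coding and UTR lengths and joined gaps were tested on simulated gene models. In these models each UTR lay within a single exon and the stop codon was always in the last exon. A stop codon before the last exon, as in ANO4, was therefore not tested in this way. Alternative splice sites, retained introns, several first or last exons, distinct coding sequences and overlaps were not tested in this way. Python 3.11.15 and matplotlib 3.10.9 were used.

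All 10 members were named, with comparison genes at the ends of a reported range and neighbours that overlap a member or come next downstream. LRRC8D and CFTR are such ends. The members, the lists and the tests were chosen with earlier results of these data known. No chance test was run.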

Additional observations from a re-analysis of the deposited data

How the results depend on the processing

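The difference between the mean of ANO1 and ANO2 and the median of the 8 others was recomputed with other definitions. Since ANO1 and ANO2 often lie on opposite sides of the others, this difference describes neither gene. For isoform number it was 4 and stayed between 3.5 and 4. For gene span it was 102050 bp, but −591.5 bp when distinct exon bases were counted, and 32128 bp without ANO7. For coding length it was 142.5 bp, 355.5 bp with the shortest transcripts and 12 bp without ANO7. For the 5′ UTR it was 14.5 bp, 80 bp with the transcript of the longest coding sequence, 54 bp with the median and −9 bp without ANO7. For cassette exons it was 1.5, and 5.41 percentage points as a percentage of internal coding exons, which is another scale. The 3′ UTR was shorter in the channels under each definition tried. Overlap rose from 0 members to 1 with whole spans on the same strand and 2 with exons on either strand. The shares of all protein-coding genes under these 3 rules were 3.34%, 6.14% and 19.9%. Leaving out ANO7, counting overlapping cassette exons once and a tolerance of 3 columns for intron positions were chosen after seeing the data. In all, 28 of 38 alternatives stayed within 1.5 times the value given. Some of these could not differ. The RefSeq models had the same exons and coding segments, and no member had a non-coding transcript to add. The 3′ UTR of the transcript with the longest coding sequence equalled the value given in every member. Such alternatives do not show that the values are stable. No paired analysis was possible because gene models carry no values of single animals. The models come from 1 genome and from public evidence, so a gene with 1 model may have isoforms that were not annotated.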
